A study of Mus musculus with 8 samples.

Results

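Il33 and 9 further genes of the interleukin-1 (IL-1) family were followed in sorted stromal cells from intestinal ulcers. The 10 genes were taken by symbol from the 53801 genes listed, and all 10 passed the filter on low counts, as did 15945 genes in all. They were 4 ligand genes (Il33, Il1a, Il1b and Il18), 3 receptor genes (Il1r1, Il1rap and Il1rl1), the decoy receptor gene Il1r2 and the antagonist genes Il1rn and Il18bp. The cells came from the small intestine of mice carrying the LTβR-YFP reporter, and indomethacin, a drug that blocks cyclooxygenases and ulcerates the gut, was given to all of them. The gate took cells negative for CD45, carried by leukocytes, and CD31, carried by endothelium, and split them into a YFP-positive and a YFP-negative fraction with 4 libraries each, numbered 1 to 4 in both. All 8 libraries therefore share the reporter strain and the drug, and no library from untreated mice entered the comparison. Nothing used here gives the dose, the time after the drug, the age of the mice or what drives the reporter.

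IL-1 family ligands are cytokines that alert tissue to injury. IL-33 is stored in the nucleus of stromal, endothelial and epithelial cells and is set free when these are damaged. It binds ST2, the product of Il1rl1, which signals together with the accessory protein encoded by Il1rap. IL-1α and IL-1β bind IL-1R1, the product of Il1r1, with the same accessory protein. IL-1R2 captures IL-1 without signalling, the product of Il1rn occupies IL-1R1 without activating it, and the Il18bp product neutralises IL-18. In fibroblasts IL-1 receptors drive chemokine, IL-6 and protease genes.

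Of the 10 genes, Il33 and the gene for its receptor were called different between the fractions, but only when libraries of equal number were paired. This pairing was taken from the data and not the labels. The fit on fraction alone called 0 of the 10 genes higher and 0 lower. Il33 and its receptor gene each have 2 annotated starts in RefSeq (GRCm38.p6). The 300-base windows around these starts, 250 bases before and 50 from the start on, are shown because counts per gene sum the transcripts of all starts. Capitals mark TATAAA, the letters of the TATA box, searched on both strands.
Il33 start 1, chr19:29924863-29925162, plus strand: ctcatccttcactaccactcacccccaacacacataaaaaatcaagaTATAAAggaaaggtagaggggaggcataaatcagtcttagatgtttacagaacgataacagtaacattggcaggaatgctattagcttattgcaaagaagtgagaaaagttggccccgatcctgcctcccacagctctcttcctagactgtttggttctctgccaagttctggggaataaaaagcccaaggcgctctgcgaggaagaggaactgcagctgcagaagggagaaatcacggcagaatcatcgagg
Il33 start 2, chr19:29945540-29945839, plus strand: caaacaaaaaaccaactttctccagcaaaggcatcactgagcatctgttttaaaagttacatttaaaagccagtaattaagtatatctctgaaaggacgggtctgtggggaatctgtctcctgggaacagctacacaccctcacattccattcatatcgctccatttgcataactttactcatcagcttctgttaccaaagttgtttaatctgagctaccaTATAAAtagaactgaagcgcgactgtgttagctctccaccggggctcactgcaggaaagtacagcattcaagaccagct
Il1rl1 start 1, chr1:40429320-40429619, plus strand: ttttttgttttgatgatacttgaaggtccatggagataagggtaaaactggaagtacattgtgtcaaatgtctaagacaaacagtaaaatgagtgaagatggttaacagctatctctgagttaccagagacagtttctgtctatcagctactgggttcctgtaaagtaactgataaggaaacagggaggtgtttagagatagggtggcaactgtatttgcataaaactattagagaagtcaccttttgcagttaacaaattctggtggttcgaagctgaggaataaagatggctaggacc
Il1rl1 start 2, chr1:40439379-40439678, plus strand: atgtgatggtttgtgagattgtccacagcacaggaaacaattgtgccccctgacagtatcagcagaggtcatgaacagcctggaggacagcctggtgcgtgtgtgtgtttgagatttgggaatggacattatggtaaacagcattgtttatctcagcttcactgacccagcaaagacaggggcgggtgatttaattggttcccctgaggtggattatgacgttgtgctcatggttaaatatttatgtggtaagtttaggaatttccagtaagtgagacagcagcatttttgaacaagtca
TATAAA lay 29 bases before the second Il33 start and 203 bases before the first, and in neither Il1rl1 window. It occurred in 13.6% of 32851 RefSeq windows of the same length. The AP-1 letters TGANTCA (7.81% of windows) and the NF-kB motif (8.46%), both searched on both strands, had no match in these 4 windows. Over the 15 windows of the 10 genes, TATAAA was found in 6, the AP-1 letters in 2 (Il1a and the first Il1rn start) and the NF-kB motif in 1, the second Il1r1 start.

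Total counts per library ran from 12481608 to 29385718. Libraries of equal number deviated together: their deviations from the group means correlated at 0.207, 0.452, 0.348 and 0.353, and those of libraries of unequal number at no more than 0.0403. The number was therefore used as a block beside the fit on fraction alone. Both libraries of number 2 stood apart from the other 6 on the first principal component (34.2% of the variance). The mitochondrial share of counts was lower on the YFP-positive side in 4 of 4 pairs, at 7.71% to 9.43% in YFP-positive and 8.07% to 12.4% in YFP-negative libraries, and its part in the results was not tested. Ltbr, the receptor gene the strain is named for, was at 79.7 ± 14.1 CPM in YFP-positive and 71.3 ± 13.8 CPM in YFP-negative cells (SD, n = 4 each). CPM are counts scaled to library size with TMM factors.

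Il33 lay at GRCm38 chromosome 19, 29925114 to 29960718, on the plus strand (ENSMUSG00000024810). Il33 stood at 239, 181, 144 and 199 CPM in YFP-positive libraries 1 to 4, against 333, 252, 202 and 331 CPM in YFP-negative libraries 1 to 4. The YFP-positive library was lower in 4 of 4 pairs of equal number, although the groups overlapped, because library 1 of the YFP-positive group lay above library 3 of the YFP-negative group. The ratios within pairs were 0.717, 0.718, 0.712 and 0.603. Il33 fell in YFP-positive cells by a log2 fold change of -0.54 ± 0.068 (SE) with the replicate number as a block, a 0.685-fold level with a 95% confidence interval of 0.620 to 0.757 (adjusted p = 0.00034, edgeR). Without the block the log2 fold change was -0.55 and the gene was not called (adjusted p = 0.99985, edgeR). In bulk RNA of this kind, fewer Il33-expressing cells and less Il33 RNA per cell cannot be told apart. The authors' deposited table gives Il33 a log2 fold change of -0.551 with an adjusted p of 3.0e-11. That table rests on the same counts, and its log2 fold changes closely match those of DESeq2 with the block, so it is no separate support. Without both libraries of number 2, the blocked log2 fold change of Il33 was -0.57 (adjusted p = 0.00038, edgeR).

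Il1rl1 lay on chromosome 1, 40429570 to 40465415, on the plus strand (ENSMUSG00000026069). Its GENCODE M21 transcripts include 2 that encode the 567-residue membrane receptor and 2 that encode a 337-residue form. The soluble form of ST2, known as a decoy that binds IL-33 outside the cell, is the shorter product of this gene, and the counts do not separate it from the receptor. Il1rl1 stood at 171, 44.9, 33.2 and 91.8 CPM in YFP-positive libraries 1 to 4, against 119, 25.7, 16.8 and 57.1 CPM in YFP-negative libraries 1 to 4. The YFP-positive library was higher in every pair, by ratios of 1.44, 1.75, 1.98 and 1.61, while the groups overlapped widely. Il1rl1 rose by a log2 fold change of 0.74 ± 0.091 (SE) with the block, a 1.67-fold level with a 95% confidence interval of 1.46 to 1.91 (adjusted p = 0.00031, edgeR). Without the block the interval of the log2 fold change ran from -0.75 to 2.03 and the gene was not called (adjusted p = 0.99985, edgeR). In the authors' deposited table, which rests on the same counts, Il1rl1 had a log2 fold change of 0.736 and an adjusted p of 2.6e-08. Without both libraries of number 2 the blocked value was 0.72 (adjusted p = 0.00034, edgeR).

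**Figure D1:**
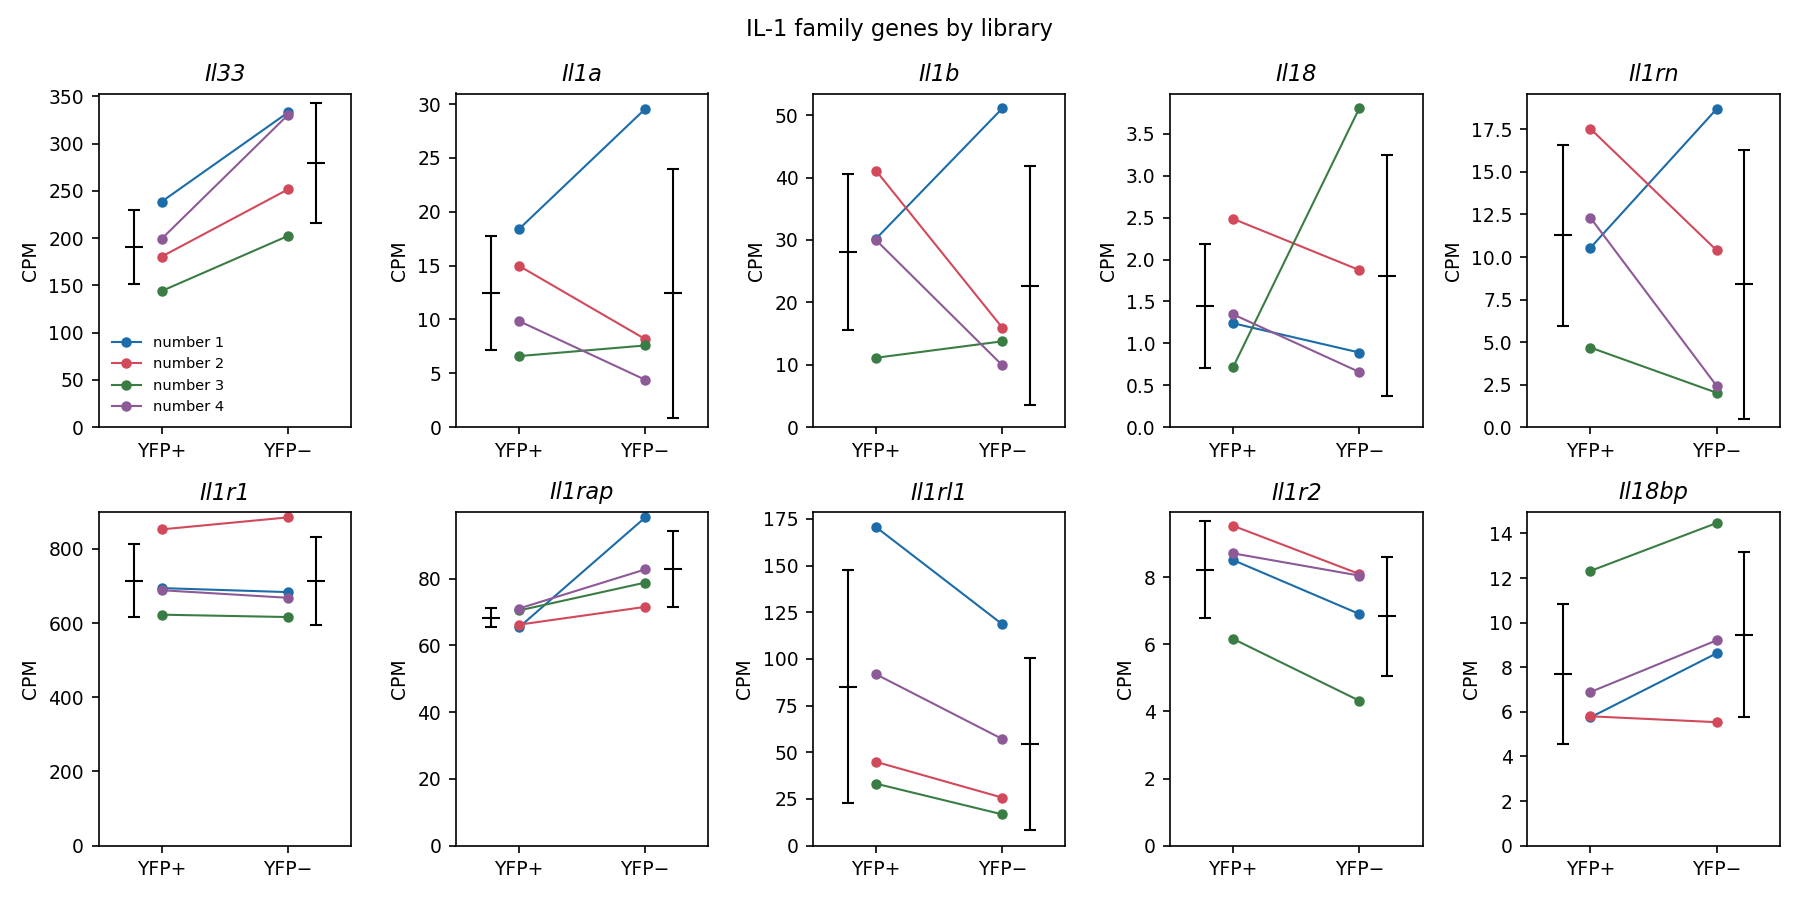
CPM of the 10 genes (y axes, each from 0) in YFP-positive and YFP-negative libraries, with lines joining libraries of equal replicate number and black bars giving the mean ± SD of 4 libraries. All 4 lines of Il33 and Il1rap are lower, and all 4 of Il1rl1 and Il1r2 higher, at the YFP-positive end.

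The ligand gene and its receptor gene thus differed in opposite directions between the fractions, but they ran in the same order across replicate numbers. In both fractions, library 1 was highest and library 3 lowest for Il33 and for Il1rl1, with libraries 4 and 2 between them. Replicate number took 49.9% of the sum of squares of log2 CPM of Il33 and the YFP fraction 48.3%. For Il1rl1 the number took 87.3% and the fraction 12.2%, and the rest of the spread was 0.579%. Per length, in TPM (counts over exon length, scaled to the same total in each library), Il33 stood at 3.34, 9.61, 10.4 and 5.19 times the level of Il1rl1 in YFP-positive libraries 1 to 4. In YFP-negative libraries 1 to 4 it stood at 6.71, 23.4, 28.9 and 13.8 times that level.

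**Figure D2:**
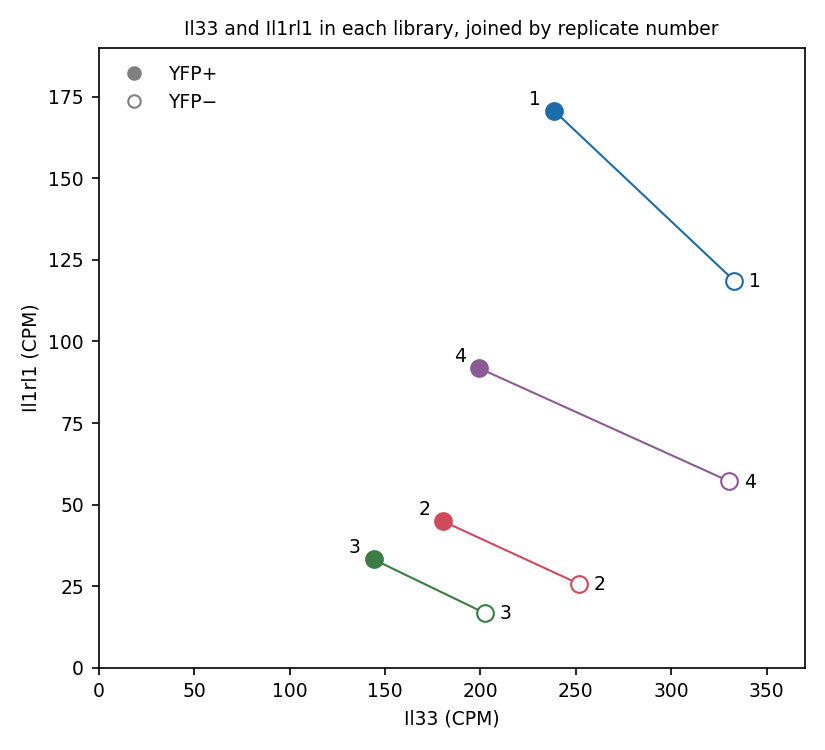
Il33 (x axis, CPM) against Il1rl1 (y axis, CPM) in each library, filled for YFP-positive and open for YFP-negative cells, with lines joining equal replicate numbers. Every line runs down to the right, from a YFP-positive library with more Il1rl1 to a YFP-negative library with more Il33.

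These 2 genes were the only members called with the block, all libraries and the count filter. Without the block, edgeR called 0 members and 0 of all 15945 genes (0% higher and 0% lower). Before adjustment, 156 genes had p of 0.05 or less and were higher (0.978%), and 169 were lower (1.06%), with Il33 among the lower. DESeq2 without the block called 2 genes (0.0126%), neither a member. With the block, edgeR called 1 of 10 members higher and 1 of 10 lower, against 111 genes (0.696%) higher and 253 (1.59%) lower among all tested, or 2.28% in either direction. DESeq2 with the block also called 1 and 1, against 1.07% higher and 2.28% lower. With library sizes alone the blocked split over all genes turned to 212 higher and 153 lower, and the same counts of members, 1 and 1, were called. By pairs alone, 2 of 10 members (Il1rl1 and Il1r2) were higher in 4 of 4 pairs, against 8.86% of all genes, and 2 (Il33 and Il1rap) were lower in 4 of 4, against 10.2%. In the authors' deposited table, 0.939% of genes with an adjusted p were higher and 2.07% lower. The median log2 fold change of the members with the block was 0.13, and that of all genes 0.0048.

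**Figure D3:**
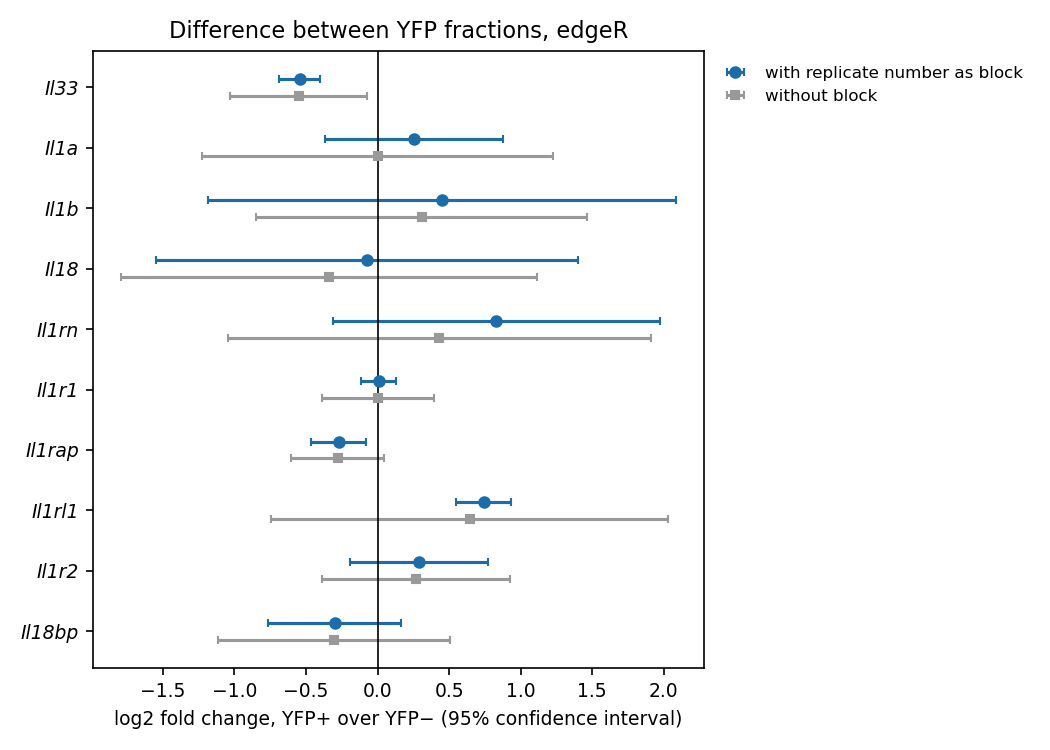
Log2 fold change of YFP-positive over YFP-negative cells (x axis) with 95% confidence intervals for the 10 genes, from edgeR with (blue circles) and without (grey squares) the replicate number as a block. With the block the intervals of Il33, Il1rl1 and Il1rap lie off 0, and those of the other 7 genes include 0.

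Markers of other cells moved with the fractions and are given beside these genes. Among all genes tested with the block, edgeR called 0.696% higher and 1.59% lower, and DESeq2 called 1.07% and 2.28%. These shares are the background for the counts in each list that follows. Of 10 fibroblast markers, all tested, edgeR with the block called 6 lower and 0 higher, Lum among them, with a median log2 fold change of -0.38. DESeq2 with the block called 4 lower and 0 higher. Their summed level was 22790 to 36700 CPM in YFP-positive and 27560 to 53540 CPM in YFP-negative libraries, lower in 4 of 4 pairs. Their part in the Il33 difference was not tested. Of 10 smooth muscle markers 3 rose and 0 fell by either tool with the block, with summed levels of 673 to 1330 CPM in YFP-positive and 583 to 937 CPM in YFP-negative libraries. Of 10 pericyte markers 9 were tested, and 1 rose and 2 fell by either tool with the block (1691 to 1886 CPM summed in YFP-positive and 1949 to 2193 CPM in YFP-negative libraries). The pericyte sum was also lower in 4 of 4 pairs, and the smooth muscle sum was higher in 4 of 4. Mast cells and type 2 innate lymphoid cells are the haematopoietic cells best known for ST2. Of 10 mast cell markers, Mcpt1, Mcpt2, Tpsab1 and Fcer1a were listed at 0 counts in all libraries, and Cpa3 did not exceed 1.38 CPM. The 10 summed to 0.448 to 8.08 CPM in YFP-positive and 0.668 to 9.37 CPM in YFP-negative libraries, and Kit was the most abundant of them by its mean. T cell and innate lymphoid markers summed to 4.80 to 23.3 CPM in YFP-positive and 7.15 to 13.8 CPM in YFP-negative libraries, with Il5 listed at 0 counts and Thy1, which is also on the fibroblast list, the most abundant. CPM do not account for gene length, so these sums were not set against the Il1rl1 level. The part of these cells in the Il1rl1 difference was not tested. Of these markers edgeR with the block called 0, and DESeq2 with the block called 1 lower, Il7r, the receptor gene for IL-7 (log2 fold change -1.65, adjusted p = 0.0193).

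Il1r1, the gene for the signalling receptor of IL-1, was the most abundant member and was nearly level between the fractions. Il1r1 stood at 695, 853, 623 and 689 CPM in YFP-positive libraries 1 to 4, against 684, 885, 617 and 668 CPM in YFP-negative libraries. The ratios within pairs were 0.963 to 1.03. The blocked interval of its fold change ran from 0.922 to 1.10 (adjusted p = 0.987, edgeR). Replicate number took 99.0% of its sum of squares, with both libraries of number 2 highest.

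Il1rap, which encodes the accessory chain shared by ST2 and IL-1R1, was lower in YFP-positive cells in 4 of 4 pairs but did not pass the test. Il1rap stood at 65.4, 66.2, 70.5 and 71.1 CPM in YFP-positive libraries 1 to 4, against 98.3, 71.6, 78.8 and 82.8 CPM in YFP-negative libraries 1 to 4. Every YFP-positive library lay below every YFP-negative one, as in 0.859% of all genes. The log2 fold change was -0.27 ± 0.090 with the block (SE; adjusted p = 0.181, edgeR) and -0.28 without it (adjusted p = 0.99985, edgeR). It was -0.16 without replicate 1, whose YFP-negative library held the highest value. Gm20319, annotated on the opposite strand, shares exon sequence with Il1rap, and nothing used here says whether reads were counted by strand.

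Il1r2, the decoy receptor for IL-1, was low. It stood at 8.51, 9.53, 6.16 and 8.71 CPM in YFP-positive libraries and at 6.90, 8.09, 4.32 and 8.05 CPM in YFP-negative libraries, 95 to 247 counts. Il1r2 was higher on the YFP-positive side in 4 of 4 pairs, by 1.08 to 1.43 times, without passing the test (blocked log2 fold change 0.29 ± 0.23, SE; adjusted p = 0.747, edgeR). Per length, Il1r1 was 23.7 to 30.3 times as abundant as the decoy in YFP-positive libraries and 24.9 to 42.8 times in YFP-negative libraries.

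Il1r2, Il1r1 and Il1rl1 stand in one cluster of receptor genes on chromosome 1, which runs from Il1r2 through Il1r1, Il1rl2, Il1rl1 and Il18r1 to Il18rap, all on the plus strand between 40074079 and 40551705. The neighbours are given for comparison. Il1rl2, the receptor gene for IL-36 cytokines, was at 97.8 ± 15.7 CPM in YFP-positive and 95.8 ± 18.3 CPM in YFP-negative cells (SD, n = 4 each; blocked adjusted p = 0.951, edgeR). Il18r1, which begins just past the end of Il1rl1 and encodes the binding chain for IL-18, held 2 to 23 counts per library. Il18rap, the accessory chain for IL-18, was chosen for mention after its values were seen. It stood at 7.30, 9.88, 4.96 and 7.72 CPM in YFP-positive libraries 1 to 4, against 3.17, 1.62, 3.81 and 3.24 CPM in YFP-negative libraries 1 to 4. The groups did not overlap, as in 0.69% of all genes for this direction. With the block its log2 fold change was 1.31 ± 0.35 (SE; adjusted p = 0.0731, edgeR), and DESeq2 with the block called it (adjusted p = 0.0165). Of the 6 other receptor genes of the family 5 were tested, with a median log2 fold change of 0.035 with the block. With the block edgeR called 0 of them and DESeq2 called 1, Il18rap. edgeR also called Il18rap with the block and library sizes alone (adjusted p = 0.0471) and with the block and no count filter (adjusted p = 0.0067). These made 3 of 9 blocked settings with a call. Il18rap was not called with the block and RLE factors (adjusted p = 0.0719, edgeR). Nor was it called with any pair left out (adjusted p = 0.0894 to 0.238, edgeR).

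The IL-1 ligand genes Il1a and Il1b varied more between libraries than between fractions. Il1b stood at 30.2, 41.1, 11.1 and 30.0 CPM in YFP-positive libraries 1 to 4, against 51.1, 15.9, 13.8 and 9.92 CPM in YFP-negative libraries 1 to 4. It was higher in 2 of 4 YFP-positive libraries than in their partners, by 2.58 and 3.02 times, and lower in pairs 1 and 3. Il1a followed the same signs, at 18.4, 15.0, 6.60 and 9.86 CPM in YFP-positive and 29.6, 8.18, 7.59 and 4.40 CPM in YFP-negative libraries. The blocked log2 fold changes were 0.45 ± 0.56 for Il1b and 0.26 ± 0.28 for Il1a (SE; adjusted p = 0.901 and 0.862, edgeR). The interval for Il1b spanned a 0.440-fold to a 4.24-fold level, so a difference of either sign was not excluded. Without library 1 of the YFP-negative group, the log2 fold changes without the block were 1.09 for Il1b and 0.89 for Il1a, neither called. With other single libraries or pairs left out, Il1b came down to 0.057 (without YFP-negative library 4) and Il1a to -0.28 (without the same library). Il1bos and Gm14023, on the opposite strands, share exon sequence with Il1b and Il1a.

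Il1rn, the antagonist gene, resembled the IL-1 genes in spread. Il1rn stood at 10.5, 17.5, 4.68 and 12.3 CPM in YFP-positive libraries 1 to 4, against 18.7, 10.4, 2.02 and 2.43 CPM in YFP-negative libraries 1 to 4. The YFP-positive library was lower in pair 1 and 1.69 to 5.07 times higher in the other pairs. The blocked log2 fold change was 0.83 ± 0.48 (SE; adjusted p = 0.650, edgeR), and 1.42 without replicate 1, where the gene was called (adjusted p = 0.0494, edgeR). It was also called with the block when no count filter was used (adjusted p = 0.0496, edgeR), and was 0.34 without replicate 4 (adjusted p = 0.936, edgeR). Per length, Il1rn was 0.120 to 0.147 times as abundant as Il1b in YFP-positive libraries and 0.0507 to 0.225 times in YFP-negative libraries.

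Leukocytes are a known source of IL-1β and its antagonist, and the sort gated out CD45-positive cells. The 10 leukocyte markers summed to 28.0, 59.3, 19.0 and 38.3 CPM in YFP-positive libraries 1 to 4, against 30.4, 27.3, 10.6 and 20.5 CPM in YFP-negative libraries 1 to 4. In YFP-positive cells library 2 was highest and library 3 lowest for the marker sum, for Il1b and for Il1rn. In YFP-negative cells library 1 was highest for all of them, and library 3 was lowest for the marker sum and for Il1rn. Il1b was lowest there in library 4, at 9.92 CPM. Il1a and Il18rap did not keep this order throughout. Il1a was highest in library 1 of the YFP-positive group, at 18.4 CPM. Il18rap was highest in library 3 of the YFP-negative group, at 3.81 CPM, and lowest in library 2, at 1.62 CPM. Ptprc, which encodes CD45, was at 2.08 to 12.2 CPM in YFP-positive and 0.877 to 4.68 CPM in YFP-negative libraries. Of the 9 leukocyte markers tested, edgeR with the block called 0, with a median log2 fold change of 0.90. DESeq2 with the block called 1 higher, Coro1a, which encodes an actin-binding protein of leukocytes (log2 fold change 1.90, adjusted p = 0.0498, higher in 4 of 4 pairs). Macrophage and monocyte markers summed to 64.6 to 129 CPM in YFP-positive and 70.7 to 139 CPM in YFP-negative libraries. This sum was highest in library 2 and lowest in library 4 of both fractions. Neutrophil markers summed to 31.6 to 82.0 CPM in YFP-positive and 32.0 to 70.4 CPM in YFP-negative libraries, with Ly6g listed at 0 counts. The neutrophil sum was highest in library 3 and lowest in library 4 of both fractions. Neither list kept the order of Il1b or Il1rn. With the block edgeR called 0 markers of either list, and DESeq2 called 1 macrophage marker higher, Csf1r, the receptor gene for a macrophage growth factor (log2 fold change 1.31, adjusted p = 0.0179, higher in 4 of 4 pairs). The part of these cells in the Il1a, Il1b, Il1rn and Il18rap differences was not tested.

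**Figure D4:**
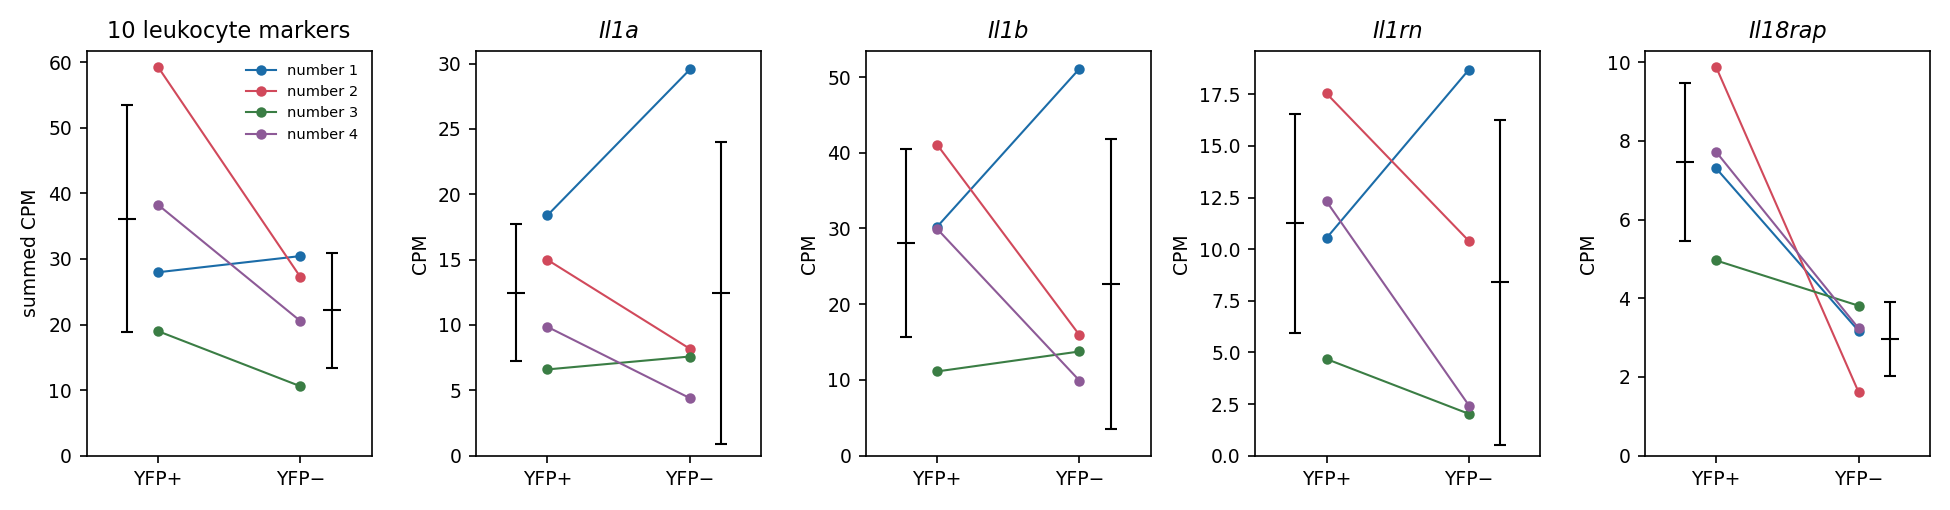
Summed CPM of 10 leukocyte markers, and CPM of Il1a, Il1b, Il1rn and Il18rap (y axes from 0), in YFP-positive and YFP-negative libraries, with lines joining equal replicate numbers and bars for the mean ± SD of 4 libraries. The sum is higher at the YFP-positive end in 3 of 4 pairs, as is Il1rn, and Il18rap in 4 of 4.

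Il18 and Il18bp were low and not called. Il18 had 36, 36, 18 and 34 counts in YFP-positive libraries 1 to 4, against 16, 22, 113 and 13 counts in YFP-negative libraries 1 to 4, or 0.658 to 3.81 CPM. Its blocked interval spanned a 0.342-fold to a 2.64-fold level (adjusted p = 0.988, edgeR). Il18 is best known from epithelium, whose 12 markers summed to 2.76 to 148 CPM in YFP-positive and 2.90 to 28.8 CPM in YFP-negative libraries, with 0 of 10 tested called by edgeR or DESeq2 with the block. Il18bp stood at 5.75, 5.80, 12.3 and 6.89 CPM in YFP-positive libraries and at 8.63, 5.54, 14.5 and 9.21 CPM in YFP-negative libraries. It was lower in 3 of 4 pairs (blocked log2 fold change -0.30 ± 0.22, SE; adjusted p = 0.721, edgeR). Il18bp overlaps exons of Numa1, a gene on the opposite strand at 213 ± 58.5 CPM in YFP-positive and 219 ± 71.1 CPM in YFP-negative cells (SD, n = 4 each), so its counts are uncertain.

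Levels of the 10 genes were set side by side only per length, in TPM over the union of annotated exons. This union counts every annotated transcript, including retained introns of Il1rn and Il1b, whether or not it is made in these cells. It was 5535 bases for Il1rn and 1907 bases for Il1b. The order of genes and all ratios given per length therefore depend on the annotation. In YFP-positive cells Il1r1 led with 210 ± 23.8 TPM, followed by Il33 with 122 ± 16.2 TPM, and their ranges did not overlap (SD, n = 4). In YFP-negative cells Il1r1 was at 200 ± 34.3 TPM and Il33 at 171 ± 37.3 TPM, and their ranges overlapped. Both genes lay above the remaining 8 in every library. Those had means of 26.8 TPM (Il1b), 22.3 (Il1rl1), 11.5 (Il1a), 11.3 (Il1rap), 7.99 (Il1r2), 4.92 (Il18bp), 3.71 (Il1rn) and 2.57 (Il18) in YFP-positive cells. In YFP-negative cells they averaged 22.1, 14.3, 11.7, 13.1, 6.30, 5.66, 2.79 and 3.26 TPM in the same order of genes. Neighbours in the YFP-positive order overlapped in range from Il1b to Il1rap and from Il1r2 to Il18, while Il1rap lay above Il1r2 in each YFP-positive library.

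**Figure D5:**
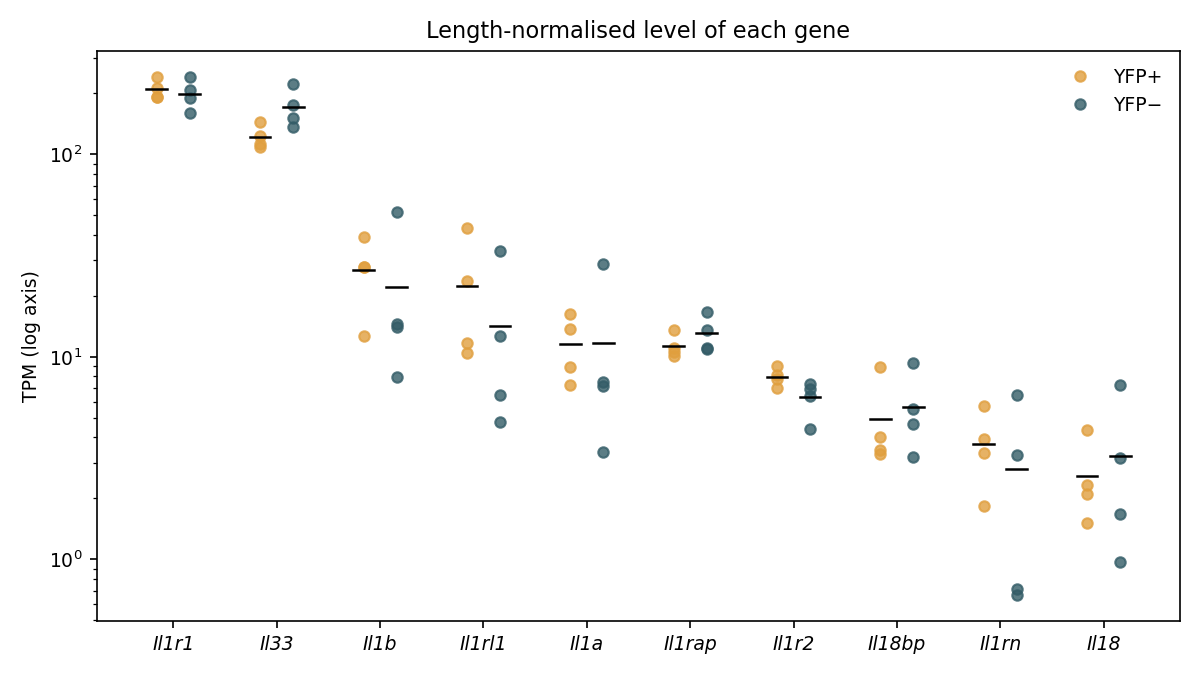
TPM of the 10 genes on a log axis, ordered by their YFP-positive mean, with 1 point per library and black lines at group means. Il1r1 and Il33 lie above 100 TPM in all 8 libraries and the other genes below 52 TPM.

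Genes whose level followed that of Il33 most closely over the 8 libraries were sought among 10533 genes with a mean of at least 5 CPM. The highest Pearson correlations of log2 CPM were with Fbln1, encoding the matrix protein fibulin 1 (0.976), the protease inhibitor gene Tfpi2 (0.974), the ribosomal protein gene Rpl21 (0.962), the matrix gene Abi3bp (0.960) and the lipase gene Dagla (0.954). Over the 6 libraries that were not of number 2 the values were 0.985, 0.976, 0.997, 0.958 and 0.976 in the same order of genes. These are descriptions: the libraries share replicate numbers in pairs and the genes were picked as the highest of many. The correlation ran over both fractions, so genes that differ between them as Il33 does were favoured by the choice. The directions and calls that follow are therefore no separate support. Each of the 5 was lower on the YFP-positive side in 4 of 4 pairs, Fbln1 at 601 ± 224 CPM in YFP-positive against 971 ± 329 CPM in YFP-negative cells (SD, n = 4 each). Fbln1, Tfpi2 and Abi3bp fell with the block (adjusted p = 7.8e-05, 0.0114 and 2.7e-05, edgeR), and Rpl21 and Dagla did not pass. Rpl21 has near-identical copies in the genome, so its counts are uncertain.

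The pathway downstream of the receptors was described from lists. Of 18 genes for the signalling chain from MyD88 and the IRAK kinases to TAK1, 17 were tested, with a median log2 fold change of -0.0097. With the block edgeR called 0 of them, and DESeq2 called 1 lower, Sqstm1 (adjusted p = 0.0369). Sqstm1, the most abundant of them, encodes the scaffold p62 and was at 571 ± 316 CPM in YFP-positive and 656 ± 313 CPM in YFP-negative cells (SD, n = 4 each). Myd88 was listed at 0 counts in all 8 libraries. Whether this reflects the RNA or the counting and annotation was not tested, so it is not read as absence. Of 20 inflammasome and ligand-processing genes, 18 were tested and 0 called by edgeR or DESeq2 with the block (median log2 fold change 0.14), with the protease gene Capn2 the most abundant, at 179 ± 42.5 CPM in YFP-positive and 171 ± 36.0 CPM in YFP-negative cells.

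Of 25 genes that IL-1 is known to induce in stromal cells, 24 were tested. With the block edgeR called 1 higher and 4 lower, and DESeq2 called 1 higher and 9 lower, adding Ccl2, Icam1, Nfkbia, Saa3 and Birc3 to the lower ones. Their median log2 fold change was -0.23, against 0.0048 over all genes. Among all genes tested with the block, edgeR called 0.696% higher and 1.59% lower, and DESeq2 called 1.07% and 2.28%. Mmp10, encoding the protease stromelysin 2, rose by 0.57 and Tnfaip3, a feedback inhibitor of NF-kB, fell by 0.44 on the log2 scale (adjusted p = 0.00065 and 0.0128, edgeR). The other three that fell were Il6, Nfkbiz and Ccl7, named because the count is small. Il6 stood at 709, 492, 274 and 229 CPM in YFP-positive libraries 1 to 4, against 952, 618, 362 and 463 CPM in YFP-negative libraries 1 to 4. It was lower in 4 of 4 pairs (blocked log2 fold change -0.54 ± 0.10, SE; adjusted p = 0.0216, edgeR). Nfkbiz, an NF-kB cofactor that serves the Il6 gene, and the monocyte chemokine gene Ccl7 fell by 0.45 and 0.37 on the log2 scale (adjusted p = 0.0184 and 0.0422, edgeR). Without replicate 1, Il6, Nfkbiz, Tnfaip3 and Ccl7 lost their calls (adjusted p = 0.104, 0.0998, 0.0865 and 0.103, edgeR), with the direction kept. Without replicate 3, Il6 also lost its call (adjusted p = 0.0555, edgeR), and Ccl7 lost its call whichever pair was left out and with library sizes alone (adjusted p = 0.139, edgeR).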

How the data were processed

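RNA was sequenced from 8 libraries, 4 YFP-positive and 4 YFP-negative. The submitters' processing notes name GRCm38, STAR 2.7.3a, cutadapt 3.4, DESeq2 and featureCounts 2.0.1, without roles or settings. The deposited table holds raw counts per gene, per the file headers. The authors' normalised values, deposited as rounded whole numbers (a score), and the authors' group means of them (a signal) were not used. The authors' comparison gives a fold (ratio), a log2 fold change and p-values, per the file headers. Its log2 fold changes differed from those of DESeq2 with the replicate number as a block by at most 0.00050 over 15634 genes with 100 or more counts.

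Counts were tested with edgeR 4.0.16 (R 4.3.3): filterByExpr, TMM, a robust quasi-likelihood fit on group, and Benjamini-Hochberg adjustment over 15945 genes, called at 0.05 or below. A fit blocked on replicate number, DESeq2 1.42.0, other scalings, no filter and left-out libraries were alternatives. Standard errors came from the log2 fold change and the F statistic. The labels do not say whether libraries are separate animals, so p-values measure the spread between these samples. With the block, this is the spread left once differences between replicate numbers are removed. With 3 or more pairs each correlated over 0.1, the numbers were taken to pair the libraries, from the data and not the labels. Within each group every pair of libraries differed by more than sampling noise (chi-square per degree of freedom at least 56.6). In the smallest library 1 CPM corresponded to about 12 counts. TPM used GENCODE M21 exon lengths, available for 53620 of 53801 identifiers.

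The members and the context lists were chosen with earlier results of these data known. From each list the text names the called member with the lowest blocked adjusted p in each direction, or else the most abundant; for Il33 it names the 5 genes of highest correlation. Where a symbol stood on several identifiers the lowest was taken. The edgeR fit with TMM and the count filter, and DESeq2, each with and without the block, were tried on simulated data. There the share of unchanged genes called was computed for edgeR only. The other scalings, the fits without a filter and those with left-out libraries were not tried on simulated data.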

Additional observations from a re-analysis of the deposited data

Results flagged for a closer look

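Library 1 of the YFP-negative group stood far above the others of its group for both IL-1 ligand genes. Il1a was at 29.6 CPM there and at 4.40 to 8.18 CPM in the other YFP-negative libraries, a gap of 0.850 of the group's range. Il1b was at 51.1 CPM there and at 9.92 to 15.9 CPM in the others, a gap of 0.854 of the range. The 10 genes gave 20 groups of 4 values, and chance flags about 1 in 20 groups. The same library was highest of its group for Il1rn, at 18.7 CPM, and for the leukocyte marker sum, at 30.4 CPM.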

How the results depend on the processing

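Without the block, no member was called under any scaling, without a count filter, by DESeq2 or with any single library left out. With the block, 1 member was called higher and 1 lower by edgeR with TMM, RLE factors or library sizes alone and by DESeq2. With no count filter, 2 were called higher, Il1rn the added one, and 1 lower. Leaving out libraries or pairs gave 0 to 2 members called higher and 0 to 1 lower. Il33 and Il1rl1 were called in 9 of 9 blocked settings, with log2 fold changes of -0.57 to -0.46 and 0.66 to 0.83 and adjusted p up to 0.00732 (edgeR). Over all genes, calls higher and lower were 0 and 2 with DESeq2 without the block. They were 111 and 253 with the block, 168 and 357 with DESeq2 and the block, 212 and 153 with library sizes alone, 99 and 265 with RLE factors, and 253 and 420 without a filter. With the block and replicate 1, 2, 3 or 4 left out, 73, 130, 38 and 47 genes were called higher and 121, 296, 119 and 120 lower, and with single libraries left out and no block 0 were called, so left-out libraries gave 0 to 130 higher and 0 to 296 lower. Library sizes alone moved the median of all genes to 0.0915. Il1a turned to -0.00016 with RLE factors and -0.0010 without a filter, and ran from -0.28 to 0.89 with libraries left out (-0.036 with the block and without replicate 4). Il1r1 turned to -0.0077 with RLE factors, -0.0076 with DESeq2, -0.0011 with DESeq2 and the block and -0.0012 with the block and RLE factors, and ran from -0.092 to 0.12 with libraries left out (-0.0051 with the block and without replicate 4). Il18 turned to 0.012 with the block and library sizes alone, and ran from -0.72 to 0.63 with libraries left out (0.35 without YFP-negative replicate 3). Ccl7 ran from -0.76 to 0.0025 with libraries left out. The cause of these turns was not tested. With the count filter and all libraries, the block changed no call of a member other than Il33 and Il1rl1. Il1b ran from 0.057 to 1.09 with libraries left out. Il18 held 13 to 113 counts per library.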

Other observations

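The IL-36 and IL-38 ligand genes of the family held few counts: of the 5 symbols found in the table (Il1f5, Il1f6, Il1f8, Il1f9 and Il1f10), none passed the count filter and Il1f8 had 0 counts in all libraries. Il1f9 had 8, 2, 64 and 32 counts in YFP-positive libraries 1 to 4, against 12, 0, 9 and 2 counts in YFP-negative libraries 1 to 4. Of 10 other alarmin genes 9 were tested and 0 called by edgeR or DESeq2 with the block, with a median log2 fold change of -0.052. Tslp, a cytokine that like IL-33 acts on type 2 immune cells, was at 8.36 ± 2.05 CPM in YFP-positive and 12.9 ± 4.68 CPM in YFP-negative cells (SD, n = 4 each; blocked adjusted p = 0.311, edgeR). The chaperone gene Hspa1a, the most abundant of that list, was at 289 ± 172 CPM in YFP-positive and 333 ± 194 CPM in YFP-negative cells.

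Of 9 endothelial markers tested of 10, edgeR with the block called 0 and DESeq2 with the block called 1 higher, Kdr (log2 fold change 1.68, adjusted p = 0.0422), with summed levels of 49.9 to 230 CPM in YFP-positive and 57.5 to 137 CPM in YFP-negative libraries.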
